A study of Homo sapiens with 39 samples.

Results

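The early growth arm of a whole-genome CRISPR knockout screen in MED12-null melanoma cells was examined guide by guide and gene by gene. Its members were the 76441 gene-targeting single-guide RNAs of the whole-genome library, among 89655 guide rows of both libraries of the series, and 1000 guides named NO_CURRENT, which carry no gene symbol, served as the reference. All of the cells were A375, a melanoma cell line driven by an activating BRAF mutation, with MED12 knocked out before the library was introduced, so the groups share that deletion. Abundance of guides was read after 8 days of growth in DMSO, the vehicle of the drug arms, in 3 libraries (replicates 1 to 3), and at day 0 in 3 libraries, 6 of the 39 libraries of the series. The same table holds cells kept in DMSO to day 14 and cells under vemurafenib, an inhibitor of mutant BRAF. The labels do not say whether the knockout cells are 1 clone or whether the replicates were infected separately, so the p values measure the spread between these libraries, which may be technical.

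In a pooled knockout screen each cell carries a guide that directs Cas9 to cut a gene, and the guide doubles as a barcode. A guide whose target a cell needs to divide is diluted out of the population, while a guide that removes a brake on growth takes up a larger share. MED12 is a subunit of the kinase module of Mediator, the complex that links transcription factors to RNA polymerase II, and BRAF-mutant melanoma cells depend on the RAF-MEK-ERK cascade and on melanocyte lineage factors for growth.

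The day-8 libraries held 87052834, 84019365 and 80683221 reads, and the day-0 libraries 71628622, 70098279 and 75738949. Reads were counted after PCR without molecular identifiers named in the labels, so they are not independent molecules. Of 77441 guides, 1830, 2038 and 1752 had no read in the day-8 libraries, against 176, 203 and 189 at day 0. After guides with low counts were left out, 76161 gene-targeting and 997 NO_CURRENT guides were tested, which covered 19101 genes with at least 3 guides (18831 of them with 4). The libraries spread apart over the 8 days. The median SD of a gene-targeting guide over the 3 libraries, on the log2 scale of CPM (reads scaled to library size), was 1.06 at day 8 and 0.35 at day 0. Day-8 libraries were closer to the day-0 library of the same replicate number (Spearman's rho 0.81 to 0.82 over guides) than to each other (0.53 to 0.54).

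Guides without a named target gained on guides against genes. They took 3.82%, 3.90% and 3.88% of the reads in the day-8 libraries, against 3.42%, 3.48% and 3.44% at day 0. The groups did not overlap (exact permutation test over libraries, 2-sided p = 0.1, the smallest that 3 against 3 allows). The median NO_CURRENT guide lay 2.13 ± 0.016 log2 above the median gene-targeting guide at day 8 and 1.70 ± 0.016 at day 0 (SD, n = 3 libraries each, exact permutation p = 0.1), so this gap was 0.43 wider at day 8. From guide to guide, the change in log2 CPM from day 0 had a median of -0.14 for gene-targeting guides, with 5th and 95th percentiles of -2.74 and 0.95. For NO_CURRENT guides the median was 0.37 and the same percentiles were -0.36 and 1.10. Below the 5th percentile of NO_CURRENT guides lay 39.8% of the gene-targeting guides and 32.3% of the guides against olfactory receptors, and above their 95th percentile 3.08% and 3.23%.

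Start abundance moved with these values. At day 0 a NO_CURRENT guide had a median of 2456 reads per library and a gene-targeting guide 756. Among the fifth of gene-targeting guides with the fewest reads at day 0 (median 247) the median change was -1.28, and among the fifth with the most (median 1821) it was 0.24. Guides against olfactory receptors, genes not expected to matter for growth of these cells, showed the same gradient, with medians of -1.21 and 0.27 at those ends. Among the 37407 gene-targeting guides whose day-0 abundance lay within the 5th to 95th percentile of NO_CURRENT guides, the gap to NO_CURRENT guides widened by 0.20 in place of 0.43, and 20.0% in place of 39.8% lay below the 5th percentile of NO_CURRENT guides. That restriction was chosen after the data had been seen. It did not match the abundances, since these guides had a median of 1252 reads at day 0 against 2456 for NO_CURRENT guides. The part of start abundance in the remaining 0.20 was not tested.

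Single guides seldom passed a test of their own. With edgeR's quasi-likelihood test and Benjamini-Hochberg adjustment over 77158 guides, 0 guides fell (0% of those tested) and 2 rose (0.00259%), although 651 were lower and 337 higher at an unadjusted p under 0.05. DESeq2 called 37 lower and 65 higher. With the replicate number as a block, 0 guides fell and 16 rose. Without any 1 library, and in a fit of the 6 libraries alone, 0 rose. The 2 that rose, 1 of 4 guides each to HPGDS and KCNK3, are taken up with the guides that were high at day 8 alone.

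Genes were therefore tested over their guides. Robust rank aggregation (RRA) asked, for losses and for gains separately, whether the guides of a gene sat higher in the edgeR ranking of all guides than uniform ranks would. The size of an effect is a difference in gene score, at day 8 minus day 0, with its SE from 3 libraries a group. A gene score averages log2 CPM over the guides of that gene. At an RRA adjusted p under 0.05, 47 of 19101 genes fell (0.246%) and 5 rose (0.0262%). With the replicate block, 99 fell (0.518%) and 12 rose (0.0628%). A test of the gene scores themselves with limma, which asks whether the libraries differ and not whether guides concur, called 643 lower (3.37%) and 14 higher (0.0733%), among them 44 of the 47 and 2 of the 5. Of the 47, 24 also passed with the block. The other 23 were DUX4, ELOB, HNRNPU, BUB3, INTS1, RPS20, DOLK, SLC25A28, NOL10, CTNNBL1, NUBP1, FAU, RPE, RPL23, PSMD3, NSA2, SPC24, PPAN, USP17L25, RPL13A, CDIPT, RAD51C and RFC3, with RRA adjusted p between 0.0520 (DUX4) and 0.446 (USP17L25) in that fit. The count of genes that fell also moved with single libraries. It was 18 without day-8 replicate 1, 35 without replicate 2 and 26 without replicate 3. Of the 47 themselves, 12, 18 and 19 passed in those fits, and of the 5 that rose 2, 4 and 2. The count of genes that rose was 3 without day-8 replicate 3 and 8 without day-0 replicate 1. All 47 genes that fell and all 5 that rose were on 1 side of day 0 in every library, as were 18.4% (lower) and 4.88% (higher) of all genes. The median gene score change over all genes was -0.21, and with libraries scaled on NO_CURRENT guides it was -0.61, a shift of -0.40 that touches every gene alike. List medians below are therefore also read relative to all genes.

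Ribosomal proteins, chaperonin subunits, kinetochore proteins and metabolic enzymes were among the genes that fell, beside DUX4, USP17L25 and C14orf80. The 47 changes ran between -6.24 and -2.33 (median -4.13). Of the 47, 32 belonged to at least 1 of the 49 gene lists, which cover core machines and also signalling, growth brakes and apoptosis. The lists held 1576 symbols, not counting each olfactory receptor, beside 19101 genes tested. They were written with earlier results of these data known, so the count of 32 is a description and not independent of the calls. Their guides began low. The median summed abundance over the guides of a gene was 2.49 CPM at day 8 and 10.8 CPM at day 0 for the 47, against 35.1 and 27.1 CPM for all genes.

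Among protein-synthesis genes, RPL27, which encodes a protein of the large ribosomal subunit, changed most. Its 4 guides had 0, 39 and 7 reads in total in the day-8 libraries through the guide RPL27_3 alone, since RPL27_1, RPL27_2 and RPL27_4 had no read in any of them, while at day 0 those guides had between 46 and 122 reads per library. The gene score fell, with a change of -6.24 ± 0.44 on the log2 scale (SE, n = 3 libraries per group, RRA adjusted p = 0.000955), with a loss in every pair. RPS20, FAU, RPL23, RPL19 and RPL13A fell, with changes of -4.58 ± 0.62, -3.93 ± 0.51, -3.82 ± 0.66, -3.35 ± 0.76 and -3.20 ± 0.45, and of these RPL19 passed with the block too. RPL13A fell in its score although its summed abundance was 18.7, 10.7 and 6.11 CPM at day 8 against 7.35, 7.29 and 10.9 CPM at day 0, through RPL13A_2, which had 2036, 703 and 626 reads against 519, 470 and 858. Of 77 ribosomal protein genes measured, 6 fell by RRA, 9 with the replicate block and 32 by limma, and none rose. The median change was -2.65, which is 2.44 below that of all genes, and 84.4% were lower in all 3 pairs, against 30.6% of all genes. Their guides began lower, at a median of 9.72 CPM summed per gene at day 0 against 27.1 CPM for all genes, and among olfactory receptor guides those with the fewest reads at day 0 had a median change of -1.21. The part of start abundance in the ribosomal median was not tested. RPL22, which has a paralog that can stand in for it, had a change of 0.20 ± 0.32, and RPS7 one of 0.06 ± 0.85, where RPS7_3 was among the guides high at day 8 alone.

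Ribosome assembly went the same way. Of 87 biogenesis factors 4 fell by RRA (NOL10, PWP2, RRP1 and PPAN, between -4.17 and -3.28), 4 with the block and 29 by limma, with a median of -2.16 and 83.9% lower in all pairs. The large-subunit factor NSA2 fell, with a change of -3.58 ± 0.44 and RACK1, a scaffold on the small subunit, one of -4.27 ± 1.26 (RRA adjusted p = 0.0238 and 0.0315). No translation initiation or elongation factor of 40 passed RRA, and 7 passed limma, with a median of -1.43. The cytosolic aminoacyl-tRNA synthetases had a median of -1.56 over 23 genes, with 2 that fell with the block and 7 by limma.

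tRNA modification stood out by MOCS3, the sulfurtransferase that activates the thiolation of tRNA wobble bases and also serves molybdenum cofactor synthesis. Its guides summed to 0.220, 0.185 and 1.05 CPM in the day-8 libraries, against 8.38, 9.63 and 12.6 CPM at day 0. No day-8 library came near a day-0 library, and the score changed by -6.06 ± 0.43 (RRA adjusted p = 0.000955). It passed in all 16 alternatives that tested it. In the list of Elongator and tRNA thiolation genes MOCS3 was the only one of 13 past RRA, MOCS3 and KTI12 fell with the block, and limma called 4. The list's median was -2.03 and 84.6% were lower in all pairs. ALKBH8, a later enzyme of the wobble pathway, had a change of -0.14.

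Protein folding and quality control lost members as well. RUVBL1, an ATPase of the INO80, TIP60 and R2TP assemblies, summed to 0.202, 0.029 and 0.260 CPM at day 8 against 5.13, 4.10 and 4.60 CPM at day 0, a change of -6.17 ± 0.38 (RRA adjusted p = 0.00722), which missed the threshold without day-8 replicate 2 (adjusted p = 0.0552). The chaperonin subunits CCT6A and CCT3, which fold actin and tubulin, fell, with changes of -4.64 ± 0.51 and -3.44 ± 0.22. The call of CCT6A was lost without each day-8 library in turn (adjusted p = 0.178, 0.117 and 0.146). Of 34 chaperonin and cochaperone genes 3 fell by RRA, 7 with the block and 14 by limma, and the median was -1.89. CCT8, a subunit of the same ring, had a change of -0.10. In the proteasome PSMD3 and PSMA5 fell, with changes of -3.60 ± 1.05 and -3.18 ± 0.49, 2 of 33 genes, against 1 with the block and 8 by limma (median -1.83). Of 30 genes for ubiquitin activation, p97 and NEDD8 or SUMO conjugation, COPS6 of the COP9 signalosome fell, with a change of -4.09 ± 0.99 and 11 fell by limma. ELOB, the adaptor of VHL-type ubiquitin ligases, fell, with a change of -4.94 ± 0.83 (RRA adjusted p = 0.0108, with the block 0.0749).

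Transcription and RNA processing were represented by several machines. GPN2, a GTPase of RNA polymerase II assembly, summed to 0.238, 0.185 and 0.25 CPM at day 8 and to 8.47, 6.37 and 7.06 CPM at day 0, and fell, with a change of -6.05 ± 0.35 (RRA adjusted p = 0.000955, passed in all 16 alternatives). INTS1, the scaffold of Integrator, fell, with a change of -4.63 ± 0.40 (adjusted p = 0.0238, with the block 0.115). Its guide INTS1_4 was near its start level in every library, with 697, 722 and 988 reads at day 8 against 834, 1185 and 1062 at day 0, while the other 3 guides had at most 16 reads in any day-8 library. HNRNPU, a nuclear RNA-binding protein, fell, with a change of -4.79 ± 0.32 (adjusted p = 0.0347). It was one of the less stable calls, since the adjusted p was 0.0853 with the block and above 0.05 without each day-8 library in turn. Of 76 spliceosome genes SRSF7 and CTNNBL1 fell, with changes of -4.31 ± 0.40 and -4.07 ± 0.93, and 21 fell by limma (median -1.88). None of 69 genes for RNA polymerases and general transcription factors passed RRA, 2 passed with the block (POLR2L and CCNH) and 16 by limma, with a median of -1.75.

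Genome duplication and division contributed RAD9A, BUB3, CENPM, SPC24, RAD51C and RFC3. RAD9A belongs to the checkpoint clamp that signals stalled forks. Its guides summed to 0.623, 2.56 and 0 CPM at day 8 and to 5.75, 7.79 and 6.36 CPM at day 0, a change of -5.51 ± 1.27 (RRA adjusted p = 0.0315). The day-8 libraries differed widely among themselves, yet none reached a day-0 value. Fitted on the 6 libraries alone, the adjusted p was 0.102. BUB3, of the spindle checkpoint, fell, with a change of -4.67 ± 0.49 (adjusted p = 0.00840, with the block 0.0629), and CENPM and SPC24 of the kinetochore fell, with changes of -4.13 ± 0.24 and -3.37 ± 0.62. Among 67 mitotic, kinetochore and anaphase-promoting complex genes 3 fell by RRA, 3 with the block and 18 by limma, and 83.6% were lower in all pairs. Of 59 replication genes RFC3, a clamp loader subunit, fell, with a change of -2.33 ± 0.20, the block called 3 others (PCNA, FEN1 and DNA2) and limma 15, with a list median of -1.74. Among 29 checkpoint and repair genes RAD9A and RAD51C fell, while CHEK2 had a change of 0.55 ± 0.66 and ATM one of 0.19.

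In metabolism the calls were scattered over pathways. GAPDH, the glycolytic dehydrogenase, summed to 0.293, 1.72 and 0.25 CPM at day 8, against 6.77, 7.76 and 6.41 CPM at day 0, and fell, with a change of -5.46 ± 0.33 (RRA adjusted p = 0.00573, passed in all 16 alternatives). It was the only one of 20 glycolysis genes past RRA, and TPI1 joined it with the block and by limma. The list had a median of -0.53. RPIA and RPE, neighbouring enzymes of the pentose phosphate pathway, fell, with changes of -4.95 ± 0.53 and -3.92 ± 1.16 (adjusted p = 0.0235 and 0.0318), RPIA not without day-8 replicate 1 or 3 (0.0918 and 0.0721). DOLK, which makes the lipid carrier of protein glycosylation, and CDIPT, the phosphatidylinositol synthase, fell, with changes of -4.33 ± 0.28 and -2.92 ± 0.35. All 17 V-ATPase genes were lower in every pair (median -2.12), 5 of them passed limma, and none passed RRA or the block.

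Mitochondrial genes that fell belonged to gene expression, import and oxidant defence. SOD2, the superoxide dismutase of the matrix, summed to 3.69, 1.63 and 3.45 CPM at day 8 and to 20.1, 17.4 and 14.0 CPM at day 0. The change was -5.18 ± 0.34 (RRA adjusted p = 0.00255, passed in all 17 alternatives). Of its guides SOD2_3 kept 370, 157 and 361 reads at day 8 against 727, 506 and 377 at day 0, and the others had at most 19. SOD1, the cytosolic enzyme, had a change of -4.79 ± 0.66 and passed with the block (adjusted p = 0.0300) but not without it (0.0568). TWNK, the mitochondrial DNA helicase, MTPAP, which polyadenylates mitochondrial RNA, MARS2, a mitochondrial tRNA synthetase, and TIMM10, an import chaperone, fell, with changes of -3.52 ± 0.12, -4.21 ± 0.12, -3.57 ± 0.27 and -4.75 ± 0.28. SLC25A28, a mitochondrial iron carrier, and NUBP1, a cytosolic iron-sulfur scaffold, fell, with changes of -4.32 ± 0.52 and -3.94 ± 0.23, 2 of 26 genes in that list, of which limma called 8. Mitochondrial ribosomal proteins had a median of -1.51 over 77 genes, with 22 past limma and none past RRA. In the respiratory chain and ATP synthase none of 75 genes passed RRA or the block and 2 passed limma, the median was -0.49, and NDUFS1 had a change of 0.56 ± 0.25.

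Genes present in near-identical copies were among the losses and are uncertain, since a guide may cut several copies and a read may belong to any of them. They were singled out after their values had been seen. DUX4 had no read on any of its 3 tested guides at day 8, against 119, 152 and 113 reads at day 0. Set against a floor of 3 reads over the day-8 group, which covers counting error only, it was at least 112-fold lower at day 8 (RRA adjusted p = 0.00153, with the block 0.0520). USP17L25 fell, with a change of -3.28 ± 0.39 (adjusted p = 0.0484), although USP17L25_2 had 927, 1432 and 2240 reads at day 8 against 580, 918 and 1138 at day 0. The 25 USP17L genes had a median change of -1.08 and 68% were lower in all pairs. The 11 TBC1D3 genes had a median of -1.52 and the 4 NPIPB genes one of -2.37, against -0.23 for 20 PRAMEF genes and -0.07 for 90 keratin-associated protein genes. Sequence shared between copies was not tested here.

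Guides against 5 genes rose, 4 of which are described here, and in each of the 5 all guides were higher in every pair. RBM15, an RNA-binding adaptor of the complex that writes N6-methyladenosine on RNA, rose most. Its guides summed to 168, 404 and 249 CPM in the day-8 libraries, against 39.7, 69.7 and 51.6 CPM at day 0. The guide RBM15_4 had 8020, 8633 and 9205 reads at day 8 and 1799, 2594 and 2410 at day 0. The score rose by 2.25 ± 0.45 (RRA adjusted p = 0.000955), with similar gains of 2.05, 2.42 and 2.27 in the 3 pairs, and it passed in all 17 alternatives. Its paralog RBM15B had a change of 0.40 ± 0.18, while METTL14, a core subunit of the same writer, had -1.69 ± 0.30 and the reader YTHDC1 had -2.29 ± 0.34, both lower by limma (adjusted p = 0.0396 and 0.0189) and not by RRA.

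MORC2, an ATPase that works with the HUSH silencing complex, rose by 1.91 ± 0.45 (RRA adjusted p = 0.00273, and 0.184 without day-8 replicate 1). Its guides summed to 198, 107 and 83.2 CPM at day 8, against 39.3, 24.4 and 24.9 CPM at day 0. UBE2F, the NEDD8-conjugating enzyme for cullin 5, summed to 82.0, 60.5 and 83.1 CPM at day 8 and to 33.1, 32.6 and 34.9 CPM at day 0, a rise of 1.04 ± 0.10 (adjusted p = 0.0142). Without day-8 replicate 1 or 3 that p was 0.297 and 0.1. ZRANB3, a translocase that remodels stalled forks, rose by 0.91 ± 0.21 (adjusted p = 0.0424) and passed in only 6 of 17 alternatives, which makes it the least stable of the 5. It had 83.0, 143 and 132 CPM at day 8 and 54.9, 56.6 and 55.0 CPM at day 0. The 5 kept a change above 0 with scaling on NO_CURRENT guides.

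Regulators of the DNA damage and cell-cycle arrest response had changes on both sides of 0. MDM2, a ubiquitin ligase, had a change of -1.99 ± 0.41 and PPM1D, a phosphatase that quenches damage signalling, one of -3.33 ± 0.70, both past limma (adjusted p = 0.0417 and 0.0287) and not past RRA (1 and 0.244). The guides to MDM2 differed, with 2 lower and 1 higher in all pairs, and their mean summed abundance was 27.7 CPM at day 8 against 18.6 CPM at day 0. USP7, which stabilises MDM2, had -1.72 ± 0.13 (limma 0.0166, RRA 0.95). By contrast USP28, a deubiquitinase, had 1.18 ± 0.26 and passed with the block (adjusted p = 0.0403) but not without it (0.0884). CDKN1A, which encodes the cyclin-kinase inhibitor p21, summed to 212, 101 and 115 CPM at day 8 against 62.7, 55.5 and 64.3 CPM at day 0, a change of 0.92 ± 0.26 that did not pass (RRA adjusted p = 0.196). TP53BP1 had 0.55 ± 1.06, with a wide spread in TP53BP1_3, whose reads were 0, 0 and 327 at day 8 and 73, 0 and 166 at day 0. The other 3 TP53BP1 guides had changes of 0.75 to 1.71.

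Other brakes on growth did not pass. NF2, the Hippo and membrane scaffold merlin, had 206, 153 and 159 CPM at day 8 and 53.3, 61.4 and 56.0 CPM at day 0. The libraries did not overlap, and the change was 1.14 ± 0.20 (RRA adjusted p = 0.517). RB1, the gatekeeper of S phase, had 0.85 ± 0.50 (adjusted p = 0.371), where RB1_3 carried most of the reads, 14768, 7823 and 13890 at day 8 against 4411, 3071 and 3974 at day 0. KEAP1 and its ligase partner CUL3 had 0.55 ± 0.23 and -0.58 ± 0.61. Of 39 growth brakes none passed RRA, and BAP1 fell with the block and by limma (-3.90 ± 0.95, block adjusted p = 0.0400). Its summed abundance overlapped, at 1.68, 24.5 and 0.723 CPM at day 8 against 9.18, 10.1 and 9.29 CPM at day 0. In the epigenetic screen described below, BAP1 had -0.53 ± 0.08 and did not pass (RRA adjusted p = 0.436, with the block 0.831). Of the 39, 20.5% were higher in all pairs and 20.5% lower, against 10.7% and 30.6% of all genes. In chromatin silencing, SETDB1 had 0.77 ± 0.41 and its partner ATF7IP 0.93 ± 0.15 (RRA adjusted p = 0.5 and 0.353), while UHRF1 fell with the block. Of 16 genes in that list 31.2% were higher and 25.0% lower in all pairs, and the median was -0.32. Cell-death effector DIABLO, which passed with the block (0.88 ± 0.18, adjusted p = 0.0457), and E2F7, a repressor of cell-cycle genes, and KIRREL1, a membrane protein, which did too (1.19 ± 0.18 and 1.10 ± 0.34, adjusted p = 0.0441 and 0.0144), were named after their values had been seen.

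In the cascade that drives A375 cells no gene passed RRA by day 8. BRAF summed to 11.6, 8.41 and 12.2 CPM at day 8 and to 12.3, 13.4 and 12.7 CPM at day 0. The score change was -1.59 ± 0.60 (RRA adjusted p = 0.814), with guides that differed. BRAF_3 had 961, 700 and 953 reads at day 8 and 745, 869 and 801 at day 0, whereas BRAF_1 had 17, 45 and 29 against 86, 151 and 194. MAP2K1, which encodes MEK1, had 0.02 ± 0.33, and the ERK brake NF1 had -0.96 ± 0.29. The median over 24 genes of the RAS-RAF-MEK-ERK list was -0.18, close to the -0.21 of all genes. Downstream, CCND1, the cyclin that ERK signalling induces, had -3.44 ± 0.27 and passed limma (adjusted p = 0.00427) but not RRA (0.271). Its guide CCND1_1 had 84, 255 and 1828 reads at day 8 against 567, 867 and 1007 at day 0. Its partner kinase CDK4 had -1.19 ± 0.39. The lineage factors MITF and SOX10 had 0.002 ± 0.249 and 0.12 ± 0.19, and none of 15 melanocyte lineage genes passed any of the tests (median -0.21). Adhesion genes had a lower median. None of 24 integrin and focal adhesion genes passed RRA or the block, but 8 passed limma, among them FERMT2 (-3.51 ± 0.53), ITGAV (-2.48 ± 0.16) and PTK2 (-1.87 ± 0.39), and the median was -1.25. ITGB1 had 0.33 ± 0.12.

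Guides against MED12 itself target a gene that the cells are labelled to lack. They summed to 40.5, 46.1 and 32.1 CPM at day 8 and to 30.8, 34.9 and 24.6 CPM at day 0, with a score change of -0.38 ± 0.63 (RRA adjusted p = 1), and no guide moved the same way in all pairs. In the kinase module, MED13, the subunit that tethers the module to Mediator, had -1.55 ± 0.40 and CCNC, its cyclin, -1.13 ± 0.12 (RRA adjusted p = 0.841 and 0.877, limma 0.0850 and 0.0623). For both, each day-8 score lay below each day-0 score. The summed abundance of MED13 overlapped, at 23.8, 17.3 and 3.87 CPM at day 8 against 16.9, 12.4 and 7.82 CPM at day 0. The paralogs CDK19, MED13L and MED12L had 0.01 ± 0.18, 0.15 ± 0.57 and -0.34 ± 0.21, and CDK8 was not analysed here. CDK19_2 was the most abundant guide of day-8 replicate 1, with 26556 reads, and CDK19 summed to 279, 57.2 and 80.8 CPM at day 8 against 65.6, 63.8 and 71.8 CPM at day 0, the highest in replicate 1. MED23, in the tail, had -0.10 ± 0.35. None of 31 Mediator genes in the 3 lists passed RRA, and the medians were -0.36 in the kinase module, -0.77 in the tail and -1.50 in the head, middle and scaffold. Among lists of chromatin complexes, BAF and PBAF had a median of 0.03 (-0.38 on NO_CURRENT scaling), Polycomb -0.19 and MLL and COMPASS -0.54. TIP60, INO80 and SRCAP had -0.58, and SAGA and ATAC -0.69. No gene in these lists passed RRA. RUVBL1, an ATPase shared by INO80 and TIP60 that did pass, was counted with the chaperonin and cochaperone genes instead.

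A small set of guides behaved unlike all others. In vemurafenib-treated cells, 51 guides (0.0661% of those tested) were at least 4-fold higher at day 8 than at day 0 and than at day 14 in all 3 replicates, and 48 of them were at least 4-fold higher in all 3 DMSO pairs of day 8 and day 0. They belonged to 49 different genes, with never more than 1 guide to a gene, and 2 were NO_CURRENT guides. Their median abundance was 8.16 CPM at day 8 in DMSO, 0.118 CPM at day 0 and 0.215 CPM at day 14 in DMSO, and it was 6.91 CPM at day 8 and 0.227 CPM at day 14 under vemurafenib. HPGDS_3 had 1315, 2132 and 1997 reads at day 8 in DMSO, against 6, 10 and 9 at day 0 and 5, 9 and 8 at day 14. KCNK3_1 had 2691, 4459 and 2834 at day 8, against 55, 32 and 23 at day 0 and 13, 23 and 30 at day 14. The other guides to HPGDS and KCNK3 did not do so, with changes between -2.73 and 0.25. The set was called high at day 8 alone by the rule in vemurafenib, which not every DMSO library met. NOTO_2 had 27 reads in day-8 DMSO replicate 1 against 28 at day 0. JUND_3 had, before scaling, 1718 reads in day-8 DMSO replicate 2 and 1073 in day-14 DMSO replicate 2. The set held 44 of the 46 guides that were over 8-fold higher at day 8 than at day 0 in every DMSO pair. By the same rule, 0 of 12214 guides of the epigenetic library were found.

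Most gene scores called higher by limma contained such a guide. Of the 14 genes higher by limma, 12 held such a guide, RBM15 not among them, and without the 51 guides limma called 2 higher and 638 lower. CD24 had a change of 2.71 with all guides and 0.76 without CD24_2, and OGFRL1 had 2.00 and -0.49. No gene past RRA without the block held such a guide. With the block ZCCHC3, named after its value had been seen, passed (adjusted p = 0.0481) and held one, with a change of 2.35 with all guides and 0.87 without it. RRA without the 51 guides and without the block called 47 lower and 6 higher. Scores of genes whose other guides were lower held them too. RPS7 had 0.06 with and -1.73 without its guide, CENPK -1.81 and -4.03, and NCAPG -1.16 and -3.28, the last of these past limma only without the guide (adjusted p = 0.0454). Why these guides were high at day 8 alone was not tested.

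The same contrast was available in another set of libraries, an epigenetic library with 10 guides per gene screened in A375 cells also labelled MED12 knockout. There 56 of 1115 genes fell (5.02%) and 33 rose (2.96%) at day 8 in DMSO against day 0, and 105 (9.42%) and 42 (3.77%) with the replicate block. Of the 56 that fell all were tested in the whole-genome screen. Their changes there were all below 0 with a median of -1.72, against a median of -0.41 over the 1089 shared genes. Of the 56, 48 were lower in all 3 pairs, against 42.5% of the shared genes. RRA called 1 of them in the whole-genome screen and limma 15. Of 31 shared genes that rose in the epigenetic screen, 28 had a whole-genome change above 0 (median 0.52, against -0.41 over the shared genes). In all pairs 15 were higher, against 9.27% of shared genes, and RRA called 1. Over the 1089 shared genes, which are not independent replicates, the changes correlated with Pearson's r = 0.70 and Spearman's rho = 0.68. In the epigenetic screen CDKN1A rose by 0.82 ± 0.08, TP53BP1 by 0.97 ± 0.08, RB1 by 0.93 ± 0.14, SETDB1 by 0.88 ± 0.07 and NF2 by 0.66 ± 0.06, each past RRA there. For these 5 the difference between the screens did not pass (limma adjusted p = 0.895, 0.866, 0.951, 0.922 and 0.389), with 95% intervals as wide as -2.48 to 1.63 for TP53BP1 and -0.57 to 0.78 for CDKN1A.

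Where the screens differed, the whole-genome change was nearly always the lower. In a limma test of the difference itself, 83 of 1089 shared genes (7.62%) had a lower change in the whole-genome screen and 3 (0.275%) a higher change. The median change over the shared genes was also lower there, at -0.41 against -0.06 in the epigenetic screen. The test did not take out this general offset, and its part in the 83 and 3 calls was not tested. SKP1, the adaptor of cullin 1 ligases, had changes of -3.76 ± 0.12 in the whole-genome screen and -0.24 ± 0.06 in the epigenetic screen (difference -3.52, 95% interval -4.03 to -3.02, limma adjusted p = 1.11e-05). In the same order of screens RUVBL1 had -6.17 and -0.72 ± 0.21, RPL27 -6.24 and -0.87 ± 0.08, HNRNPU -4.79 and -0.71 ± 0.19, RPL6 -4.29 ± 0.39 and -0.70 ± 0.18, and TAF2, a core promoter factor, -3.53 ± 0.30 and -0.72 ± 0.15 (adjusted p = 2.94e-05, 2.94e-05, 9.78e-05, 0.000751 and 0.00110). By RRA, SKP1, RPL6 and TAF2 did not pass in the whole-genome screen (adjusted p = 0.485, 0.602 and 0.0558). None of these lower genes passed RRA in the epigenetic screen, where RPL27 did with the block (0.0154). Summed abundance of RPL6 overlapped between day 8 and day 0. The 3 higher genes were UBE2T, UBE3C and WDR5, and both UBE2T and UBE3C held a guide high at day 8 alone. Without such guides their differences were -0.51 and -0.08 (adjusted p = 0.197 and 0.928), and 83 genes were lower and 1 was higher. WDR5, a core subunit of COMPASS, had -0.41 ± 0.25 in the whole-genome screen and -1.61 ± 0.15 in the epigenetic screen (difference 1.20, adjusted p = 0.0458). Next in order, PRDM10 and ZRANB3 did not pass. These counts moved with single libraries, between 30 (without epigenetic day-0 replicate 2) and 188 (without whole-genome day-8 replicate 1) for lower changes, and between 0 and 18 (without whole-genome day-8 replicate 2) for higher changes. The screens differ in guides and libraries, the labels do not say whether they used the same knockout cells, and what sets the difference in size was not tested.

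At day 14 in DMSO, in libraries compared with the same day-0 libraries, the median change over all genes was -0.68, against -0.21 at day 8. For the 47 genes that fell by day 8, the changes at day 14 against day 0 lay between -7.94 and -4.08, and for the 5 that rose between 1.72 and 3.93. Side by side, RBM15 had 3.93 at day 14 and 2.25 at day 8, MORC2 3.26 and 1.91, UBE2F 1.79 and 1.04, and ZRANB3 1.72 and 0.91. At day 14 RBM15, MORC2 and UBE2F passed RRA (adjusted p = 0.00127, 0.0189 and 0.0206) and ZRANB3 did not (0.0866). BRAF had -3.58 at day 14 and -1.59 at day 8, CCND1 -5.79 and -3.44, MED13 -4.14 and -1.55, and CCNC -3.09 and -1.13. MED12 had -1.31 and -0.38, and MITF -0.28 and 0.002. None of BRAF, CCND1, MED13, CCNC, MED12 and MITF passed RRA at day 14 (BRAF 0.806, CCND1 0.292 and MED13 0.677, adjusted p). Their scores and summed abundance did not always move together. Mean summed abundance at day 14 and day 0 was 13.4 and 12.8 CPM for BRAF, 15.4 and 13.3 CPM for CCND1, and 15.2 and 12.4 CPM for MED13. It was 48.4 and 30.1 CPM for MED12, 57.6 and 36.7 CPM for MITF, and 6.93 and 10.6 CPM for CCNC. RRA called 23 lower (0.120%) and 6 higher (0.0314%) among all genes at day 14, fewer lower genes than at day 8, while the share of guides with no read was 7.41% to 8.70% there and 2.26% to 2.63% at day 8.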

How the data were processed

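Guide abundance was measured by sequencing guide cassettes amplified from genomic DNA. The authors deposited read counts per guide, not normalized, in a table of 15 libraries for the whole-genome screen and another for the epigenetic screen. Per the submitters' processing notes the tools included bcl2fastq, HISAT2 and HTSeq, with versions not given in the sources used here. A read that fits near-identical guides cannot be assigned with certainty, and PCR reads without molecular identifiers are not independent molecules.

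Counts were tested per guide with edgeR 4.0.16 (R 4.3.3; TMM scaling, filterByExpr with a minimum count of 10, quasi-likelihood test, all 15 libraries in 1 fit). Guides of a gene were combined by RRA (alpha 0.25, 10000000 seeded draws, p taken as 2 times the smaller direction) over genes with at least 3 tested guides, with Benjamini-Hochberg adjustment and a threshold of 0.05. Gene scores are means over guides of log2 CPM with 0.5 reads added, tested with limma 3.58.1 as an alternative and for the difference between screens. DESeq2 1.42.0, other scalings and filters, the 6 libraries alone, the replicate block and leaving out each library were the other alternatives. Fits were tested on simulated data.

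Same-numbered day-8 and day-0 libraries deviated together (correlation of deviations from group means 0.63, 0.64 and 0.64 over guides, other pairs -0.33 to -0.28), so the numbers were taken to pair them. Deviations from a mean of 3 libraries sum to 0, so the negative values follow from the positive ones. The pairing entered the replicate block and the counts over pairs. The main tests, the limma tests and the SEs took the libraries as unpaired. Named genes were the 15 largest losses and up to 10 gains among genes past the threshold with separate groups, up to 4 passing and 2 contrasting members of each of 49 lists, a fixed set of 23 Mediator, MAPK, lineage, checkpoint and growth genes, and up to 6 per direction with the lowest p of the difference between screens. Some genes that the rule names are not reported here. Genes outside that rule were chosen after their values were seen. Members and lists were chosen with earlier results of these data known. Of 19113 symbols, 18221 are current in RefSeq GRCh38.p14 and 808 are older names of 1 gene. The MED23 knockout and drug contrasts were not used, apart from the drug libraries in the guide fit and in the set of guides high at day 8 alone.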

Additional observations from a re-analysis of the deposited data

Results flagged for a closer look

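Of the 83 lower and 3 higher genes by limma's test of the difference between the whole-genome and the epigenetic screen, 10 are given here. The median change over the 1089 shared genes was -0.41 in the whole-genome screen and -0.06 in the epigenetic screen, an offset that the test did not take out. The whole-genome change was lower for RPL27 (difference -5.36, adjusted p = 2.94e-05), RUVBL1 (-5.45, 2.94e-05), HNRNPU (-4.08, 9.78e-05), CCND1 (-2.45, 0.00207), SKP1 (-3.52, 1.11e-05), RPL6 (-3.60, 0.000751) and TAF2 (-2.81, 0.00110). Of these, CCND1, SKP1, RPL6 and TAF2 did not pass RRA in the whole-genome screen, and none passed it in the epigenetic screen without the block. The whole-genome change thus differed in size from changes that were not themselves called there. The whole-genome change was higher for UBE2T (1.45, 0.0155), UBE3C (1.21, 0.0337) and WDR5 (1.20, 0.0458), of which UBE2T and UBE3C each held 1 guide that was high at day 8 alone.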

How the results depend on the processing

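The count of 47 genes that fell became 26 with scaling on NO_CURRENT guides, 25 with total reads alone, 30 by DESeq2, 99 with the replicate block and 643 by limma on gene scores (638 without the guides high at day 8 alone, a set chosen after seeing the data). Of the 47 themselves, 23 passed with scaling on NO_CURRENT guides, 22 with total reads alone, 24 by DESeq2, 24 with the block and 44 by limma. With a mean of at least 100 reads per guide 3 were called. That filter takes out guides with few reads, whether they began low or were lost. Leaving out 1 library gave 18 to 49. The count of 5 genes that rose became 10 in a fit of the 6 libraries alone, 12 with the replicate block, 14 by limma, 2 by limma without those guides, and 3 to 8 without 1 library. All 5 passed with the 6 libraries and with the block, and 2 of them by limma. Guides lower numbered 37 by DESeq2, and guides higher 65 by DESeq2, 16 with the block, 0 with the 6 libraries and 0 to 0 without 1 library. In the epigenetic screen the block raised 56 lower genes to 105. Lower and higher differences between screens ran 30 to 188 and 0 to 18 without 1 library, and 1 was higher without the guides high at day 8 alone. With 5 reads added the median change of the 47 was -2.97 in place of -4.13. The NO_CURRENT gap widened by 0.20 for gene-targeting guides within the NO_CURRENT range of day-0 abundance, which did not match the 2 classes in median. Without the guides high at day 8 alone the differences of UBE2T and UBE3C turned to -0.51 and -0.08 and the change of OGFRL1 to -0.49. Scaling on NO_CURRENT guides put 49 list medians below 0, against 47. Except where stated, the cause was not tested. Low starting counts limit the precision of single guides.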
